A study of Mus musculus with 6 samples.

Results

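The tumour necrosis factor (TNF) superfamily ligands and receptors were followed in tumours grown from HM1, a mouse line of ovarian cancer cells. Members were chosen by gene name alone: every name that starts with Tnfsf or Tnfrsf followed by a digit, together with Tnf, Lta, Ltb, Ltbr, Fas, Fasl, Cd40, Cd40lg, Cd27, Cd70, Ngfr, Eda, Edar and Eda2r. They came to 46 of the 57462 genes in the files: 18 ligands, 27 receptors and Tnfsf13os, an RNA named as the opposite strand of Tnfsf13. Of the 46, 32 had a level of at least 1 TPM in 3 or more tumours and were tested, and 14 lay below that.

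The study compared 3 tumours labelled shST3GAL3, in which the sialyltransferase ST3GAL3 was knocked down, with 3 tumours labelled shControl, whose genotype and treatment are both given as wild type. All 6 were HM1 tumours of an early tumour model. RNA was taken from tumour tissue, so host cells can contribute to every value. The comparison asks how ST3GAL3 in the tumour cells bears on immunity against the tumour. The sources used here give no host strain or age, no tumour site and no number of hairpins. Nor do they say that the tumours came from separate mice, so each p-value covers just the spread among these 6 samples, and that spread may be technical.

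TNF ligands are made mostly as trimers on the cell surface and bind receptors of the TNF receptor superfamily. Some receptors, among them Fas and the TRAIL receptor, carry a death domain and can start apoptosis. Others recruit TRAF adaptors and switch on NF-kB, and on T cells receptors such as OX40, CD27 and GITR act as co-stimulators. In tumours the ligands and receptors are made by T cells, myeloid cells, stroma and the tumour cells themselves.

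Levels are in TPM, a relative abundance corrected for gene length and scaled to the same total in every library. It keeps no read number, so the depth behind each value is unknown. Between 13930 and 14762 genes per library reached 1 TPM. St3gal3 (ENSMUSG00000028538) itself had 8.44, 6.77 and 7.49 TPM in shST3GAL3 tumours 1, 2 and 3, against 14.03, 13.84 and 13.79 TPM in the shControl tumours. Its log2 fold change was -0.80 (SE 0.11; limma adjusted p = 0.348). Thus even the targeted gene, with no overlap of the groups, did not reach an adjusted p under 0.05. The library of shST3GAL3 1 stood apart, with Pearson correlations across genes of 0.9262 to 0.9562 with the other libraries, against 0.9706 to 0.9822 among the other 5. The epithelial markers Krt8 and Krt18 were abundant in all 6 tumours (728.22, 1024.95 and 1227.06 TPM of Krt8 in shST3GAL3 and 1218.93, 1295.20 and 1155.84 TPM in shControl), while Krt7 and Muc16 lay under 1 TPM throughout.

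Most TNF superfamily genes that were tested had higher values in the shST3GAL3 tumours. Of the 32, 24 had a positive log2 fold change, against 52.7% of all 14207 genes tested, and the median was 0.31, against 0.01 over all genes. At an adjusted p under 0.05 (limma, Benjamini-Hochberg over all genes) 0 members were called in either direction, where 0% of all genes were higher and 0.00704% lower. At an unadjusted limma p under 0.05, the threshold meant by "called" from here on, 11 members were higher and 0 lower. The background for these counts was 9.19% of all genes higher and 3.78% lower. Of all genes called so, 70.8% were higher, a share that was 51.2% with median-ratio scaling and 47.8% with quantile normalization.

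The groups were separate with shST3GAL3 on top for 15 members, against 15.7% of all genes, and with shST3GAL3 below for 3 members, against 7.76%. With 3 tumours a side the two-sided exact permutation p of such a gene is 0.1 and cannot be smaller, and it was 0.1 for all 18. Each of the 32 members had its highest or its lowest value of the 6 tumours in shST3GAL3 1, against 65.9% of all genes. It was the highest for 24 and the lowest for 8.

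**Figure D1:**
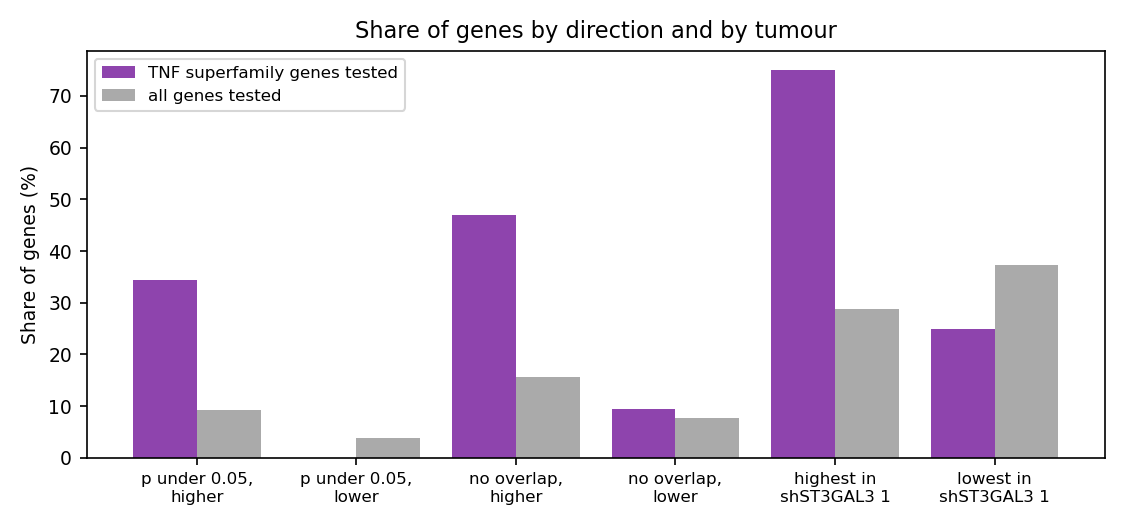
Share of genes (%) that meet each of 6 descriptions, for the 32 TNF superfamily genes tested (purple) and for all 14207 genes tested (grey). At an unadjusted p under 0.05, 34.4% of the family and 9.19% of all genes were higher in shST3GAL3 tumours, and 75% of the family and 28.7% of all genes had their highest value in shST3GAL3 1.

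**Figure D2:**
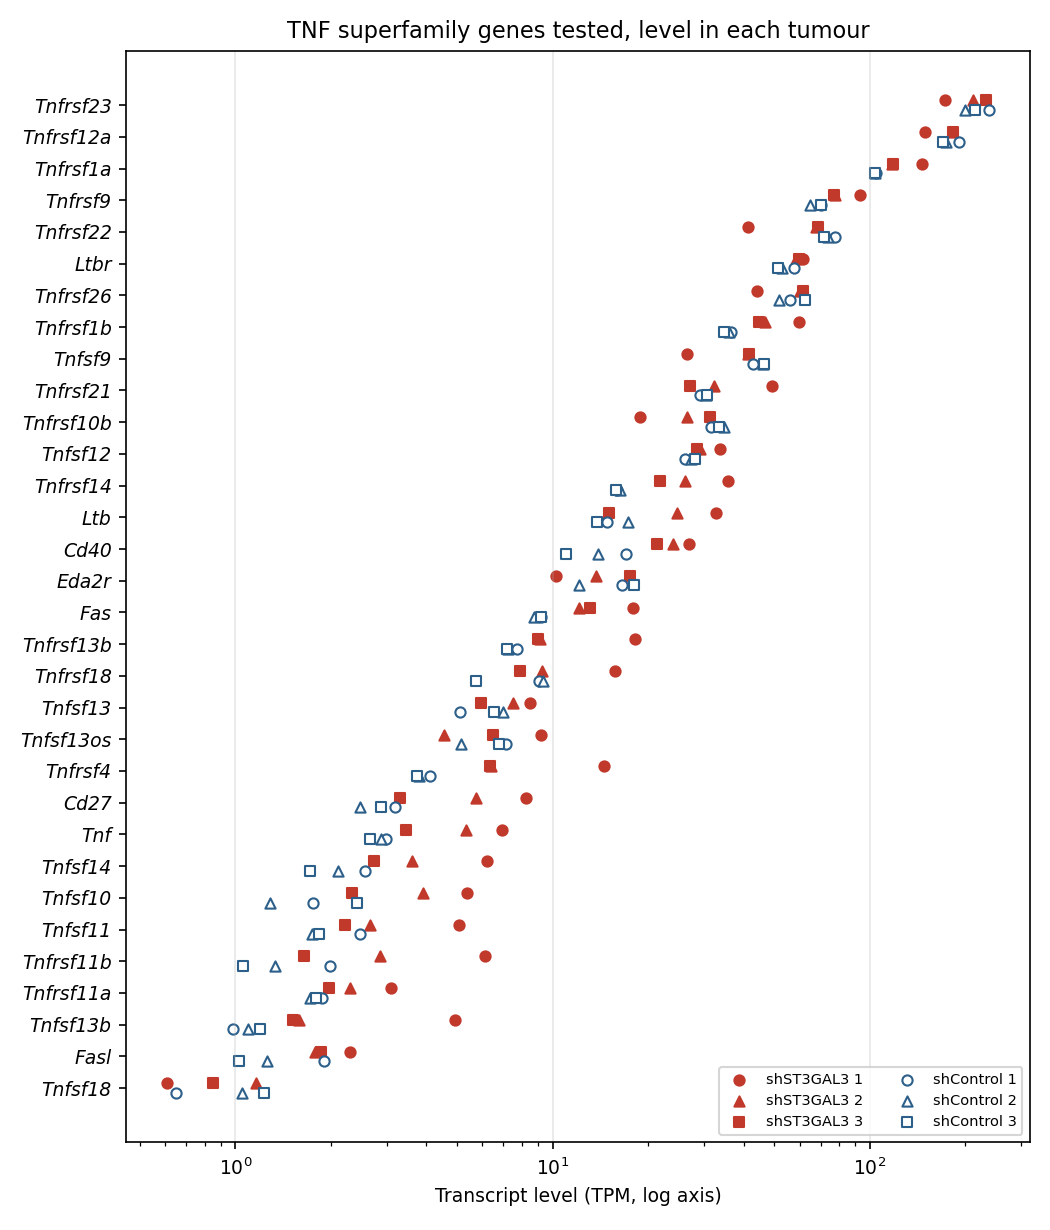
Level of each tested gene in each tumour (TPM, log axis), with filled red symbols for the 3 shST3GAL3 tumours and open blue symbols for the 3 shControl tumours, and the shape giving the tumour number. Levels ran from about 1 TPM for Tnfsf18 to over 170 TPM for Tnfrsf23, and the red circle of shST3GAL3 1 lies at an end of every row.

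The founding ligand Tnf, an inflammatory cytokine of macrophages and T cells, stood at 6.95, 5.32 and 3.44 TPM in the shST3GAL3 tumours, against 2.99, 2.87 and 2.66 TPM in the shControl tumours. The groups did not overlap, and the shControl tumours lay close together. Mean levels were 5.24 ± 1.76 TPM in shST3GAL3 and 2.84 ± 0.167 TPM in shControl tumours (SD, n = 3 each, as for all means here), and the log2 fold change was 0.66 (SE 0.22; limma adjusted p = 0.38). Tnf was no longer called without shControl 2, shControl 3 or shST3GAL3 2.

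Its receptors are Tnfrsf1a, which is found on most cells and carries a death domain, and Tnfrsf1b, which is found mainly on immune and endothelial cells and recruits TRAF2. Tnfrsf1b (ENSMUSG00000028599) stood at 59.55, 46.72 and 44.86 TPM in shST3GAL3 and 36.58, 35.95 and 34.66 TPM in shControl tumours. Its means were 50.4 ± 8.0 TPM in shST3GAL3 and 35.7 ± 0.979 TPM in shControl tumours, the groups did not overlap, and the log2 fold change was 0.47 (SE 0.12; limma adjusted p = 0.38). Tnfrsf1b was called in each of the 6 fits that left out 1 tumour. Tnfrsf1a was the more abundant receptor, at 145.50, 117.56 and 118.33 TPM in shST3GAL3 and 104.29, 103.44 and 104.09 TPM in shControl tumours. Its difference was smaller (log2 fold change 0.28, SE 0.10; limma adjusted p = 0.38), with no overlap. It was 0.18 without shST3GAL3 1, and Tnfrsf1a was no longer called when any 1 of the shControl tumours was left out or with median-ratio scaling.

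The lymphotoxin branch uses the receptors Ltbr and Tnfrsf14 (HVEM) and includes Tnfsf14, also named LIGHT, a ligand of both. Tnfrsf14 (ENSMUSG00000042333) stood at 35.68, 26.05 and 21.81 TPM in shST3GAL3 and 16.00, 16.25 and 15.85 TPM in shControl tumours. Every shST3GAL3 tumour was above the narrow shControl range, with means of 27.8 ± 7.11 TPM in shST3GAL3 and 16.0 ± 0.202 TPM in shControl tumours and a log2 fold change of 0.73 (SE 0.17; limma adjusted p = 0.38). It was called in each of the 6 fits that left out 1 tumour. Its ligand Tnfsf14 stood at 6.23, 3.60 and 2.74 TPM in shST3GAL3 and 2.56, 2.11 and 1.72 TPM in shControl tumours. The groups were separate, but shST3GAL3 3 was close to shControl 1 (log2 fold change 0.68, SE 0.27; limma adjusted p = 0.38). The value for Tnfsf14 was 0.41 without shST3GAL3 1, and it was no longer called when shST3GAL3 1, shST3GAL3 2 or any 1 of the shControl tumours was left out, nor with median-ratio scaling or quantile normalization.

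Ltb, which forms the membrane lymphotoxin trimer with Lta, stood at 32.69, 24.70 and 15.01 TPM in shST3GAL3 and 14.83, 17.25 and 13.79 TPM in shControl tumours. The value in shST3GAL3 3 lay within the shControl range (log2 fold change 0.57, SE 0.26; limma adjusted p = 0.4), and the log2 fold change was 0.86 without it, where Ltb was called, and 0.32 without shST3GAL3 1. Ltb was also called with library weights or the replicate block. Ltbr, the receptor of that trimer on stromal and myeloid cells, stood at 61.46, 58.37 and 59.97 TPM in shST3GAL3 and 57.73, 53.02 and 51.49 TPM in shControl tumours, close but with no overlap (0.15, SE 0.07; limma adjusted p = 0.413). Lta was low, between 0.71 and 1.13 TPM in shST3GAL3 and between 0.75 and 0.87 TPM in shControl tumours, and was not tested.

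Promoter windows, from 250 bases before to 50 bases after the annotated start, were found by symbol in RefSeq (build GRCm38.p6, another than that of the files) for 35 members, with 39 windows in all. They are shown for Tnfrsf14, Tnfrsf1b, Fas and Tnfrsf4, which were called in every fit that left out 1 tumour, and for the neighbours Tnf and Ltb on chromosome 17, of which Ltb was not called. Cd40 was also called in every such fit but had no window. Ltb was chosen after its motif match was seen. Tnfrsf14 lies at chr4:154928028-154928327 and Tnfrsf1b at chr4:145246821-145247120, both on the minus strand. Fas lies at chr19:34290409-34290708 and Ltb at chr17:35194257-35194556, both on the plus strand. Tnfrsf4 lies at chr4:156013445-156013744 on the plus strand and Tnf at chr17:35201958-35202257 on the minus strand. Capitals mark matches, on either strand, to the core of interferon response elements, to TTCNNNGAA (the STAT site) or to the NF-kB site of the immunoglobulin kappa enhancer.
Tnfrsf14: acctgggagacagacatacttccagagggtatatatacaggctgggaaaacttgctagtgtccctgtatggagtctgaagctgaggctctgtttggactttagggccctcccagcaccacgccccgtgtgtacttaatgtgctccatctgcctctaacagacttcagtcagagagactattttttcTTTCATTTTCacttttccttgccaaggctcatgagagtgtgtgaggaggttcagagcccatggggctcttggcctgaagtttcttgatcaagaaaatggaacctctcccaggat
Tnfrsf1b: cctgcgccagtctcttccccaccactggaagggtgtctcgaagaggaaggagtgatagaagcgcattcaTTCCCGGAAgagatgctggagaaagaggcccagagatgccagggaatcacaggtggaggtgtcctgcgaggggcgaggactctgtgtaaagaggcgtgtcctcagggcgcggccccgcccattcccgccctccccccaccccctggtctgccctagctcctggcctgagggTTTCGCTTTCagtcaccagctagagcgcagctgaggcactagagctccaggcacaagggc
Fas: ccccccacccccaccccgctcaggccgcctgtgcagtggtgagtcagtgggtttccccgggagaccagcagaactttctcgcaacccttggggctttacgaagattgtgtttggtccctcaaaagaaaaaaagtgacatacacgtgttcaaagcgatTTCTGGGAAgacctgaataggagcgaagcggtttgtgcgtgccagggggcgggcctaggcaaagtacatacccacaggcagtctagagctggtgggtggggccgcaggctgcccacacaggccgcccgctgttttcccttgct
Ltb: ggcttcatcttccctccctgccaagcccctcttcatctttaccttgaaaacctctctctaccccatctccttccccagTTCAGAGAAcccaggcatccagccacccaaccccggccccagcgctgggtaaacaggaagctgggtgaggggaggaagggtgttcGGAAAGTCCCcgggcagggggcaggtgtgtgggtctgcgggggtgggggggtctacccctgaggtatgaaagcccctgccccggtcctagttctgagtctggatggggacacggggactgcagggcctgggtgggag
Tnfrsf4: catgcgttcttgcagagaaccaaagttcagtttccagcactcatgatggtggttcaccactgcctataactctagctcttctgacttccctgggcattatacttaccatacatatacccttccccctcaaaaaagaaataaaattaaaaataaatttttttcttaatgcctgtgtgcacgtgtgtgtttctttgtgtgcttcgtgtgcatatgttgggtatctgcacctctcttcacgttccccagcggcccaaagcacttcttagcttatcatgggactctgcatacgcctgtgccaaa
Tnf: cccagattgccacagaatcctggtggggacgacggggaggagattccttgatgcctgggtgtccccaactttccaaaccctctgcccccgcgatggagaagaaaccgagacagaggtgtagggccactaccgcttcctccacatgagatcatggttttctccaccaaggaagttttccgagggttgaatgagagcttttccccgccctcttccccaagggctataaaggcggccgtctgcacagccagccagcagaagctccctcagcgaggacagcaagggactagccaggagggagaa

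The interferon response core was matched at position -64 of Tnfrsf14 and at -10 of Tnfrsf1b, counted from the annotated start to the first base of the match. TTCNNNGAA was matched at -181 of Tnfrsf1b, -93 of Fas and -172 of Ltb. The windows of Tnfrsf4 and Tnf held no match to these 3 motifs. The kappa enhancer NF-kB site was matched in Ltb alone among the members with a window, at -87 and on the other strand. Over the 39 member windows the interferon response core was found in 10.3%, TTCNNNGAA in 23.1% and the kappa NF-kB site in 2.56%, which is 1 window. Over all 32851 windows of this length the shares were 3.44%, 8.3% and 0.155%. The looser NF-kB consensus was in 66.7% of the member windows and 50.8% of all windows. Some other motifs that were searched were rarer in the member windows. Their shares were 0% against 0.0883%, 1.1%, 1.79% and 3.89% of all windows, and 2.56% against 7.51%. The interferon core with another repeat had 0% against 0.116%. The remaining spellings were commoner in the member windows, at 2.56%, 10.3% and 10.3% against 0.411%, 5.78% and 6.95%. These differences were not tested. A match describes the letters of the window, not binding.

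The receptors that co-stimulate lymphocytes had the highest median of the role groups with more than 1 tested member, 0.73. The role groups were chosen with earlier results of these data known, so this ranking is a description. Of their 8 genes 7 were tested, and all 7 had a positive log2 fold change, against 52.7% of all genes. Against 9.19% of all genes, 6 were called higher, namely Cd40, Tnfrsf14, Tnfrsf1b, Tnfrsf4, Tnfrsf9 and Cd27. Cd40 (ENSMUSG00000017652), the receptor through which helper T cells license antigen-presenting cells and B cells, had the smallest p of the family. It stood at 26.87, 23.90 and 21.31 TPM in shST3GAL3 and 17.06, 13.90 and 11.04 TPM in shControl tumours. The groups did not overlap, with means of 24 ± 2.78 TPM in shST3GAL3 and 14.0 ± 3.01 TPM in shControl tumours and a log2 fold change of 0.75 (SE 0.17; limma adjusted p = 0.38). It depended least on shST3GAL3 1 among the 11, with a log2 fold change of 0.67 without that tumour. Its ligand gene Cd40lg lay at 0.80, 0.05 and 0 TPM in shST3GAL3 and 0.10, 0.34 and 0.17 TPM in shControl tumours.

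Tnfrsf4 (ENSMUSG00000029075) encodes OX40, a receptor of activated and regulatory T cells, and had the largest log2 fold change of the tested members. It stood at 14.57, 6.39 and 6.37 TPM in shST3GAL3 and 4.10, 3.78 and 3.75 TPM in shControl tumours. In shST3GAL3 1 the value was far above that of the other tumours, and those of shST3GAL3 2 and 3 were alike and above every shControl value. The log2 fold change was 0.96 (SE 0.30; limma adjusted p = 0.38), and 0.60 without shST3GAL3 1. Its neighbour on chromosome 4, Tnfrsf18, encodes GITR and had 15.70, 9.26 and 7.89 TPM in shST3GAL3 and 9.03, 9.35 and 5.75 TPM in shControl tumours. There the groups overlapped (0.37, SE 0.28; limma adjusted p = 0.546), and the value was 0.10 without shST3GAL3 1 and 0.18 without shControl 3. The ligand genes of this pair, Tnfsf4 and Tnfsf18, were low, at 0.36 to 0.89 and 0.61 to 1.16 TPM in shST3GAL3 and 0.60 to 0.92 and 0.65 to 1.23 TPM in shControl tumours.

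Cd27, a co-stimulator of naive and memory T cells, stood at 8.22, 5.74 and 3.31 TPM in shST3GAL3 and 3.19, 2.47 and 2.88 TPM in shControl tumours. The groups did not overlap, but shST3GAL3 3 and shControl 1 were close (log2 fold change 0.75, SE 0.28; limma adjusted p = 0.38). It was 0.49 without shST3GAL3 1, and Cd27 was no longer called when shST3GAL3 1, shST3GAL3 2 or any 1 of the shControl tumours was left out. Cd70, which encodes the CD27 ligand, ran the other way at levels too low for the test, with 0.09, 0 and 0 TPM in shST3GAL3 and 0.45, 0.29 and 0.19 TPM in shControl tumours. Tnfrsf8, which encodes CD30, was also below the filter, at 0.34 to 0.67 TPM in shST3GAL3 and 0.17 to 0.39 TPM in shControl tumours.

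Tnfrsf9 and Tnfsf9, which encode the co-stimulator CD137 and its ligand, were both abundant, with log2 fold changes of opposite sign, of which only that of Tnfrsf9 was called. Tnfrsf9 stood at 92.95, 77.56 and 77.12 TPM in shST3GAL3 and 69.96, 64.57 and 69.88 TPM in shControl tumours (log2 fold change 0.27, SE 0.10; limma adjusted p = 0.38). The groups were separate, the difference was 0.18 without shST3GAL3 1, and Tnfrsf9 was no longer called when any 1 of the shControl tumours was left out or with median-ratio scaling. Tnfsf9, the ligand gene with the highest mean level, stood at 26.59, 41.20 and 41.46 TPM in shST3GAL3 and 42.68, 45.99 and 46.34 TPM in shControl tumours. All 3 shST3GAL3 values were below the shControl values, but shST3GAL3 1 was far lower than the other 2 (log2 fold change -0.32, SE 0.17; limma adjusted p = 0.432), and the value was -0.12 without it.

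Among the death receptors and their ligands, Fas and the TRAIL receptor differed in direction. Fas (ENSMUSG00000024778), the receptor for Fas ligand, stood at 17.89, 12.08 and 13.07 TPM in shST3GAL3 and 9.21, 8.75 and 9.22 TPM in shControl tumours. The groups did not overlap, with means of 14.3 ± 3.11 TPM in shST3GAL3 and 9.06 ± 0.269 TPM in shControl tumours and a log2 fold change of 0.59 (SE 0.15; limma adjusted p = 0.38). It was called in each of the 6 fits that left out 1 tumour. Fasl, made by cytotoxic T cells and NK cells, stood at 2.29, 1.78 and 1.86 TPM in shST3GAL3 and 1.90, 1.26 and 1.03 TPM in shControl tumours, with overlap (0.33, SE 0.20; limma adjusted p = 0.472).

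Tnfsf10, which encodes TRAIL, stood at 5.37, 3.89 and 2.34 TPM in shST3GAL3 and 1.76, 1.29 and 2.41 TPM in shControl tumours. Its groups overlapped, since shST3GAL3 3 was just below shControl 3, and the log2 fold change was 0.76 (SE 0.28; limma adjusted p = 0.38). Tnfsf10 was no longer called without shControl 1, shControl 2, shST3GAL3 1 or shST3GAL3 2, or with the replicate block. Tnfrsf10b, its death receptor in the mouse, stood at 18.92, 26.60 and 31.22 TPM in shST3GAL3 and 31.53, 34.71 and 33.44 TPM in shControl tumours. All shST3GAL3 values were below the shControl values, the third of them barely (log2 fold change -0.39, SE 0.18; limma adjusted p = 0.394). It was called lower with median-ratio scaling, quantile normalization, library weights or the replicate block and without shST3GAL3 3, and its log2 fold change was -0.20 without shST3GAL3 1. Tnfrsf21, another receptor with a death domain, was highest in shST3GAL3 1, at 48.96, 32.18 and 27.11 TPM in shST3GAL3 and 29.23, 30.45 and 30.76 TPM in shControl tumours, and its sign turned without that tumour (0.21 with it and -0.03 without it).

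**Figure D3:**
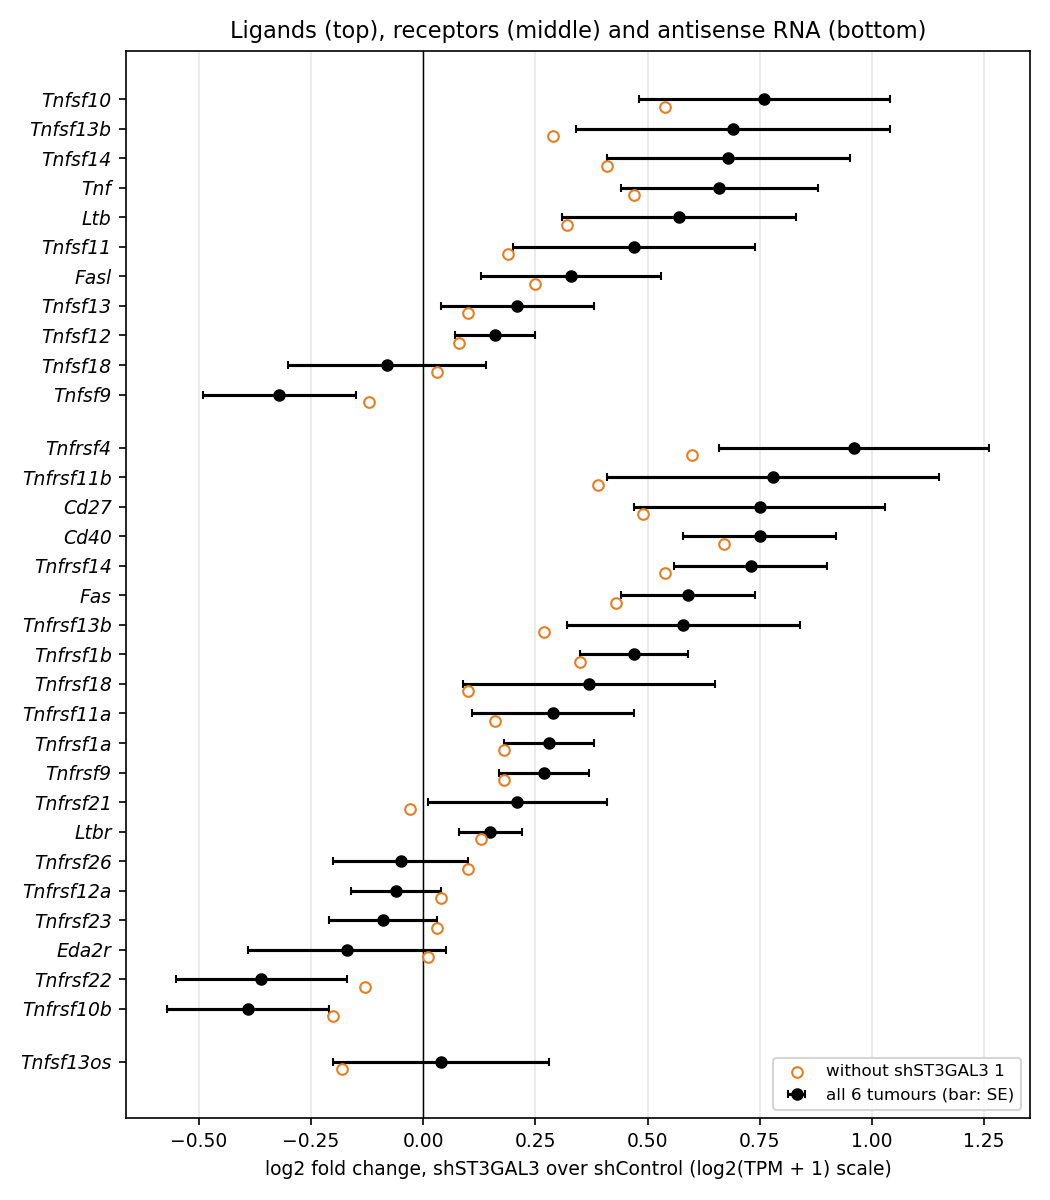
Log2 fold change of each tested gene, shST3GAL3 over shControl, on the log2(TPM + 1) scale (black points, bars give the SE), and the same without shST3GAL3 1 (open orange circles). Tnfrsf4 had the largest value, 0.96, and Tnfrsf10b the lowest, -0.39. Without shST3GAL3 1 the value of Cd40 was 0.67 and that of Tnfrsf13b 0.27.

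The ligands of B cell and plasma cell survival and their receptors were mostly low. Tnfsf13b, which encodes BAFF, stood at 4.92, 1.59 and 1.52 TPM in shST3GAL3 and 0.98, 1.10 and 1.20 TPM in shControl tumours. The groups were separate, but shST3GAL3 1 was far above the rest (log2 fold change 0.69, SE 0.35; limma adjusted p = 0.411), and the value was 0.29 without it. Its receptor gene Tnfrsf13b, which encodes TACI, was also highest in shST3GAL3 1, with 18.23, 9.13 and 9.02 TPM in shST3GAL3 and 7.74, 7.22 and 7.20 TPM in shControl tumours (0.58, SE 0.26; limma adjusted p = 0.394). The value was 0.27 without shST3GAL3 1, and Tnfrsf13b was called when any 1 of the shST3GAL3 tumours was left out and with the replicate block. The BAFF receptor gene Tnfrsf13c and Tnfrsf17, which encodes BCMA, did not exceed 0.38 TPM in any tumour. Tnfsf13, which encodes the related ligand APRIL, stood at 8.51, 7.51 and 5.94 TPM in shST3GAL3 and 5.10, 6.96 and 6.52 TPM in shControl tumours, with overlap (0.21, SE 0.17; limma adjusted p = 0.578), and the value was 0.10 without shST3GAL3 1 and 0.09 without shControl 1. Tnfsf13os, listed as its opposite strand, had a log2 fold change of 0.04 (SE 0.24). The strand setting of the counting is not given in the sources used here, so reads of Tnfsf13, its neighbour Tnfsf12 and Tnfsf13os cannot be told apart with certainty.

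In the bone and lymphoid organ branch, Tnfsf11 encodes RANKL, Tnfrsf11a its receptor RANK and Tnfrsf11b the soluble decoy osteoprotegerin. Tnfrsf11b had the larger difference, at 6.14, 2.85 and 1.65 TPM in shST3GAL3 and 1.99, 1.33 and 1.06 TPM in shControl tumours, with shST3GAL3 3 inside the shControl range (log2 fold change 0.78, SE 0.37; limma adjusted p = 0.402). It was 0.39 without shST3GAL3 1, and Tnfrsf11b was called without shST3GAL3 3 and with the replicate block. Tnfsf11 stood at 5.08, 2.65 and 2.22 TPM in shST3GAL3 and 2.47, 1.75 and 1.83 TPM in shControl tumours (0.47, SE 0.27; limma adjusted p = 0.449), and the value was 0.19 without shST3GAL3 1. Tnfrsf11a stood at 3.10, 2.29 and 1.97 TPM in shST3GAL3 and 1.87, 1.72 and 1.80 TPM in shControl tumours, with no overlap (0.29, SE 0.18; limma adjusted p = 0.469), and the value was 0.16 without shST3GAL3 1.

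The most abundant members of all were a receptor of tissue cells and a decoy receptor, and both overlapped between the groups. Tnfrsf12a, the receptor of the ligand TWEAK on tissue and tumour cells, stood at 149.42, 182.80 and 183.01 TPM in shST3GAL3 and 191.09, 173.35 and 170.29 TPM in shControl tumours (log2 fold change -0.06, SE 0.10). Its ligand gene Tnfsf12, the second ligand by mean level, stood at 33.71, 29.17 and 28.51 TPM in shST3GAL3 and 26.07, 27.36 and 28.00 TPM in shControl tumours, with no overlap (0.16, SE 0.09; limma adjusted p = 0.457), and the value was 0.08 without shST3GAL3 1. Eda2r, a receptor of the ectodysplasin branch, overlapped at 10.27 to 17.49 TPM in shST3GAL3 and 12.09 to 18.03 TPM in shControl tumours.

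Tnfrsf22, Tnfrsf23 and Tnfrsf26 lie next to each other on chromosome 7 of the mouse, and the first pair are known as decoy receptors for TRAIL. Tnfrsf23 had the highest mean level of the family, at 172.87, 210.95 and 231.40 TPM in shST3GAL3 and 236.72, 199.60 and 213.77 TPM in shControl tumours, with wide overlap (log2 fold change -0.09, SE 0.12). Tnfrsf22 stood at 41.35, 67.39 and 68.61 TPM in shST3GAL3 and 77.49, 73.96 and 71.78 TPM in shControl tumours, all lower in shST3GAL3 (-0.36, SE 0.19; limma adjusted p = 0.43), and -0.13 without shST3GAL3 1. Tnfrsf26 overlapped, at 43.95 to 61.39 TPM in shST3GAL3 and 51.73 to 62.25 TPM in shControl tumours. The longest alignment between transcripts of Tnfrsf22 and Tnfrsf23 was 91.2% identical over 2172 bases (GENCODE M21, blastn), so how reads were divided between them is uncertain.

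Of the 14 members that were not tested, 10 stayed under 1 TPM in every tumour, and Edar, the ectodysplasin receptor, was listed at 0 in all 6. Besides those named above, Tnfrsf19, a receptor of epithelial and stromal cells, had 1.36, 0.82 and 0.69 TPM in shST3GAL3 and 0.18, 0.21 and 0.50 TPM in shControl tumours. Tnfrsf25, the death domain receptor for the ligand TL1A, had 1.15, 0.68 and 0.46 TPM in shST3GAL3 and 0, 0.36 and 0.37 TPM in shControl tumours. With no filter on low values, Tnfrsf19 and Tnfrsf25 were higher and Cd70 lower at an unadjusted p under 0.05, while Cd27 and Tnfsf14 were no longer called, and 5.9% of all genes were higher. Ngfr, the p75 neurotrophin receptor, was at 1.22 TPM in shST3GAL3 1 and between 0.10 and 0.18 TPM in the other 5 tumours. The genes of the ligands ectodysplasin, CD30 ligand and TL1A, Eda, Tnfsf8 and Tnfsf15, lay between 0.09 and 0.95 TPM in shST3GAL3 and between 0.02 and 0.79 TPM in shControl tumours.

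Summed over all ligands or all receptors, the levels of the groups were close. The 18 ligand genes summed to 137, 126 and 108 TPM in shST3GAL3 and 105, 113 and 110 TPM in shControl tumours, so that shST3GAL3 3 lay within the shControl range. The 27 receptor genes summed to 997, 994 and 1009 TPM in shST3GAL3 and 978, 899 and 920 TPM in shControl tumours, with no overlap. The 8 co-stimulatory receptors made up 254, 196 and 183 TPM of this in shST3GAL3 and 156, 146 and 144 TPM in shControl tumours. The chromosome 7 cluster made up 258, 338 and 361 TPM in shST3GAL3 and 370, 325 and 348 TPM in shControl tumours.

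By tumour, the median difference of the 32 tested members from the shControl mean was 0.62, 0.23 and 0.14 on the log2 scale in shST3GAL3 1, 2 and 3. Over all genes these medians were -0.04, 0.03 and 0.06. For the 7 co-stimulatory receptors they were 0.91, 0.60 and 0.32, and for the 11 tested ligands 1.02, 0.28 and 0.10. Without shST3GAL3 1, 9 members were higher at an unadjusted p under 0.05, against 8.54% of all genes. Cd27, Tnfsf10 and Tnfsf14 were no longer among them and Tnfrsf13b was added. Without shControl 1, 2 or 3 there were 6, 5 and 6, where 5.73%, 4.41% and 4.76% of all genes were higher. Without shST3GAL3 2 there were 8, against 7.67% of all genes, and without shST3GAL3 3 there were 14, against 12.7%, so the share over all genes was lowest and highest in the same fits as the count of members. Cd40, Tnfrsf14, Tnfrsf1b, Fas and Tnfrsf4 were called in all 6 of these fits.

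**Figure D4:**
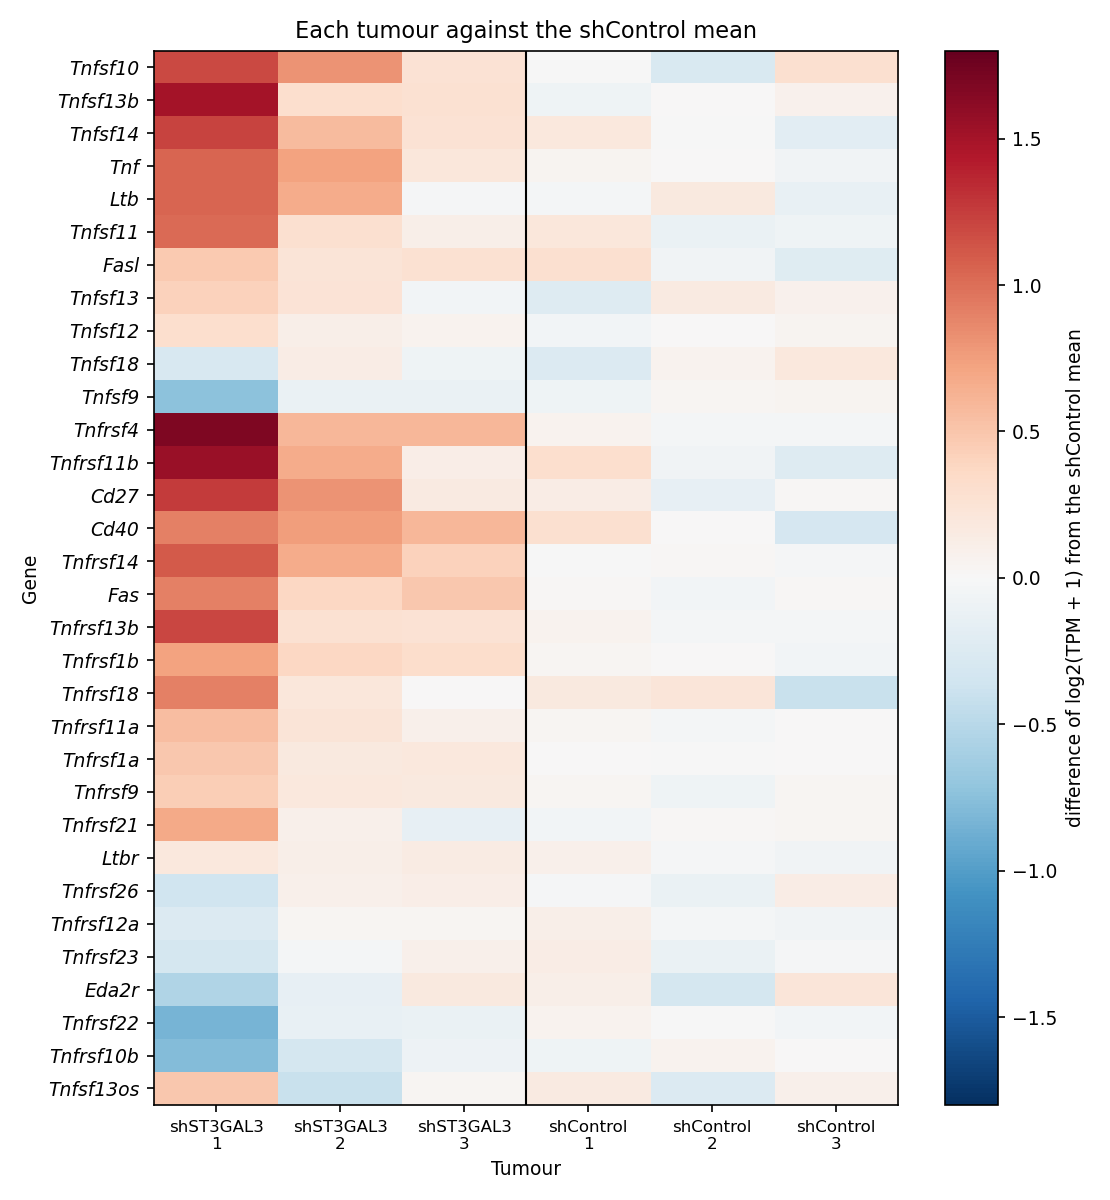
Difference of each tested gene from its shControl mean, in log2(TPM + 1), for the 3 shST3GAL3 tumours (left of the line) and the 3 shControl tumours (right). Ligands are at the top and receptors below them. The medians over the 32 genes were 0.62, 0.23 and 0.14 in shST3GAL3 1, 2 and 3, and red is darkest in shST3GAL3 1.

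Summed markers of several host cell types were higher in the same tumours. In whole tumours, more cells of a type and more RNA per cell cannot be told apart. The T cell list summed to 446, 299 and 184 TPM in shST3GAL3 and 180, 130 and 149 TPM in shControl tumours, with Thy1, which fibroblasts also make, as its largest part. All 11 of its genes had a positive log2 fold change, against 52.7% of all genes. An unadjusted p under 0.05 was found for 7, where 9.19% of all genes were higher. The groups were separate with shST3GAL3 on top for 5 of the 11, against 15.7% of all genes, and overlapped for the rest. The regulatory T cell list summed to 32.6, 12.8 and 14.7 TPM in shST3GAL3 and 8.47, 7.65 and 7.46 TPM in shControl tumours, and all 4 of its tested genes had an unadjusted p under 0.05. The macrophage list summed to 2326, 1788 and 1313 TPM in shST3GAL3 and 1318, 1257 and 1106 TPM in shControl tumours, with 4 of 9 genes at that threshold. The dendritic cell list had 83.6, 72.6 and 55.3 TPM in shST3GAL3 and 48.1, 50.7 and 37.2 TPM in shControl tumours, with 2 of 7 genes at the threshold.

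Stromal markers differed more. The fibroblast list summed to 6237, 1710 and 1176 TPM in shST3GAL3 and 709, 626 and 1017 TPM in shControl tumours. In it 8 of 8 genes were higher at an unadjusted p under 0.05, against 9.19% of all genes. The endothelial list had 284, 127 and 105 TPM in shST3GAL3 and 74.5, 59 and 76.5 TPM in shControl tumours, with 7 of 8 genes. The epithelial tumour cell list summed to 1782, 2703 and 3214 TPM in shST3GAL3 and 3296, 3690 and 3209 TPM in shControl tumours, with 0 of 6 tested genes at that threshold and Krt7 and Muc16 under 1 TPM. Krt8, Krt18 and Krt19 made up most of this sum and had negative log2 fold changes (-0.33, -0.43 and -0.66). The other tested genes of the list, Cdh1, Wt1 and Msln, had positive ones (0.46, 0.34 and 0.01). The NK cell list overlapped, at 30.7, 31.3 and 16.9 TPM in shST3GAL3 and 23.4, 19.6 and 21.7 TPM in shControl tumours. A list of early response genes that tissue handling can raise had 693, 504 and 471 TPM in shST3GAL3 and 405, 393 and 419 TPM in shControl tumours. The B cell list summed to 6.94, 2.19 and 1.19 TPM in shST3GAL3 and 0.49, 0.88 and 0.80 TPM in shControl tumours. Its only tested gene, Cd79b, was called higher, at 3.26, 1.33 and 1.01 TPM in shST3GAL3 and 0.34, 0.38 and 0.54 TPM in shControl tumours, while Ms4a1, Pax5 and Blk stayed under 1 TPM. The plasma cell list summed to 4088, 459 and 191 TPM in shST3GAL3 and 169, 168 and 126 TPM in shControl tumours. Igkc was its largest part in shST3GAL3 1 and 2 and Sdc1, which epithelial cells also make, in the other 4 tumours. Igkc overlapped between the groups, at 3772.44, 288.60 and 36.44 TPM in shST3GAL3 and 13.78, 40.48 and 2.22 TPM in shControl tumours. The neutrophil list overlapped, at 53.1 to 296 TPM in shST3GAL3 and 64.4 to 122 TPM in shControl tumours, and all 4 tested mast cell genes and 3 of 4 erythroid genes were called higher. The part of any of these cell types in the values of the TNF superfamily was not tested.

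**Figure D5:**
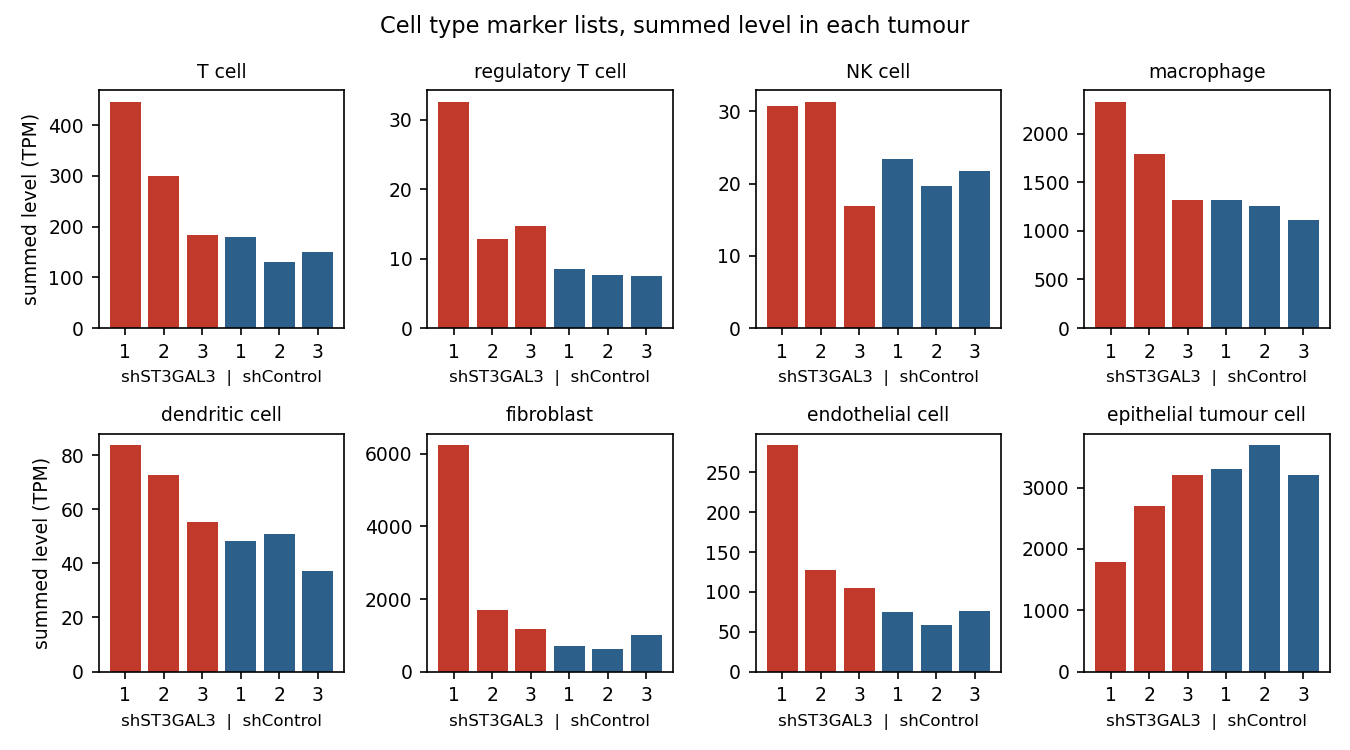
Summed level (TPM) of 8 cell type marker lists in each tumour, with red bars for shST3GAL3 1 to 3 and blue bars for shControl 1 to 3, each axis starting at 0. The fibroblast sum was 6237 TPM in shST3GAL3 1 and at most 1710 TPM elsewhere. The epithelial sum, mostly of Krt8, Krt18 and Krt19, was lowest in shST3GAL3 1, at 1782 TPM.

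Downstream of the receptors, the lists differed in size of change, with medians from -0.01 in the death pathway to 0.52 in the NF-kB targets among lists with more than 1 tested gene. The 7 lists held adaptors, death pathway genes, NF-kB components, NF-kB targets, lymphoid chemokines, and shedding proteases with their regulators. Of their 73 genes 67 were tested, and the median log2 fold change was 0.12. At an unadjusted limma p under 0.05, 11 were higher and 0 lower, against 9.19% and 3.78% of all genes. At an adjusted p under 0.05 there were 0. Of the adaptors 1 of 13 was called, Birc3, a ubiquitin ligase of TRAF complexes and itself an NF-kB target, at 36.66, 32.93 and 24.42 TPM in shST3GAL3 and 20.17, 24.18 and 21.16 TPM in shControl tumours (log2 fold change 0.49, SE 0.16). The counts for the adaptors, 1 of 13, and for the kinases and subunits, 1 of 12, lie near the 9.19% of all genes. Traf1 pointed down, at 34.47 to 36.45 TPM in shST3GAL3 and 36.72 to 42.33 TPM in shControl tumours. Of the 12 NF-kB kinases and subunits only Relb, the subunit of the noncanonical pathway, was called in the fit of all 6 tumours, at 35.49, 27.16 and 26.75 TPM in shST3GAL3 and 22.07, 23.16 and 21.60 TPM in shControl tumours (0.39, SE 0.12).

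The inhibitors and feedback genes of NF-kB had a median of 0.30. Against 9.19% of all genes, 4 of 11 were called higher. These were Tnip1 (70.39, 58.61 and 57.83 TPM in shST3GAL3 and 52.77, 45.78 and 47.68 TPM in shControl tumours), Nfkbie, N4bp1 and Tnfaip3, which encodes the deubiquitinase A20 (0.51, SE 0.20). Among 14 tested target genes the median was 0.52 and 4 were called, the adhesion genes Vcam1 (86.17, 56.52 and 44.53 TPM in shST3GAL3 and 35.21, 28.52 and 29.60 TPM in shControl tumours) and Icam1, the antioxidant enzyme gene Sod2 and the chemokine gene Ccl5. Vcam1 is also an endothelial gene and Ccl5 also a T cell gene. The shedding protease list had 0 of 5 called, with Adam10 at 70.68 to 80.93 TPM in shST3GAL3 and 79.85 to 85.71 TPM in shControl tumours. Of the lymphoid chemokines that the lymphotoxin receptor is known to drive, Ccl21a was the only gene above the filter and overlapped between the groups, at 3.52, 28.23 and 16.05 TPM in shST3GAL3 and 2.44, 1.47 and 12.29 TPM in shControl tumours.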

How the data were processed

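RNA sequencing of 6 HM1 tumours was used, 3 shST3GAL3 and 3 shControl, grouped by title. The deposited values are TPM per gene, made by the authors, with 2 decimals and 1 library per file. Per the submitters' processing notes, the tools were fastp, HISAT and RSEM and the build was GRCm39, with no versions. For the annotation release and the strand of counting, nothing is given in the sources used here. TPM is relative to the library total, so a rise in abundant transcripts lowers all others, and precision rests on the replicates alone. The gene lengths are those deposited in the files and entered no test.

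Genes with at least 1 TPM in 3 or more libraries, 14207 in all, were fitted in R 4.3.3 with limma 3.58.1 and a mean-variance trend on log2(TPM + 1), with the group alone in the model and p-values adjusted by the Benjamini-Hochberg method over all of them (threshold 0.05). Fold changes on this scale understate those of low genes. The procedure was run on simulated data with independent normal noise, alike in all tumours. At an adjusted p under 0.05 it recovered 62.5% of changes of 1 log2 unit and 88.2% of changes of 2, with 5.03% of calls false. These data held no outlying tumour, and every member had a change under 1, so recovery of changes like those of the members was not tested. The members, role groups, pathway and marker lists were chosen with earlier results of these data known, so counts over them are descriptions, set beside the share over all genes. Every member may be named; values in all tumours go to members with an unadjusted p under 0.05, the 4 most abundant ligands and receptors and their partners, and of other genes to St3gal3, the up to 4 with the smallest p in a pathway list and the 2 most abundant in a marker list. Krt7, Muc16, Ms4a1, Pax5, Blk, Traf1, Adam10 and further genes outside this rule were chosen after their values were seen. Alternatives were another pseudocount, other filters and scalings, library weights, no trend, the replicate block and leaving out each tumour. Promoter windows came from RefSeq (GRCm38.p6) by symbol, and chromosomes from the same table. Some single genes of the lists are not reported here.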

Additional observations from a re-analysis of the deposited data

How the results depend on the processing

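No member passed an adjusted p under 0.05 under any alternative run, and the smallest adjusted p of a member ranged from 0.134 with library weights to 0.662 without shControl 3. Over all genes, 1 was higher at an adjusted p under 0.05 with a pseudocount of 0.1 or without the trend, and with library weights 5 were higher and 3 lower. Leaving out 1 tumour gave 0 to 2 genes higher and 1 to 2 lower. The count of 11 members higher at an unadjusted p under 0.05 ranged from 5 to 14 when 1 tumour was left out, and the count of 0 lower from 0 to 1. It was 1 lower with no filter (Cd70), and 1 with median-ratio scaling, quantile normalization or library weights (Tnfrsf10b). With median-ratio scaling 8 members were called higher, against 6.62% of all genes, and with quantile normalization 10, against 6.19%. The count of 15 members above the shControl range was 10 with quantile normalization and 12 with median-ratio scaling. It was 17 with no filter or a filter on mean TPM, where more members were tested. With 1 tumour left out, where fewer values have to be separate, it was 15 to 21. The share of all genes above the range was not computed for these alternatives. In the signalling lists, the count of 11 higher was 19 with library weights and 6 to 16 with 1 tumour left out, and the count of 0 lower was 0 to 1.

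Same-numbered tumours had correlations of their deviations of 0.0145, -0.0799 and 0.0402, and not every tumour correlated best with its own number. With so few tumours per group, these correlations cannot decide whether the replicate numbers pair the tumours. With the replicate block 13 members were higher and 1 lower, Tnfrsf10b, at an unadjusted p under 0.05, with Tnfsf10 lost and Ltb, Tnfrsf11b and Tnfrsf13b added among the higher.

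Signs turned for small values, most often without shST3GAL3 1 or with library weights. When 1 tumour was left out, log2 fold changes ranged from -0.11 to 0.04 for Tnfrsf12a, from -0.03 to 0.39 for Tnfrsf21, from -0.34 to 0.01 for Eda2r and from -0.18 to 0.03 for Tnfrsf23. They ranged from -0.13 to 0.10 for Tnfrsf26, with 0.02 without shControl 3, and from -0.20 to 0.03 for Tnfsf18, with 0.02 without shControl 3. For Tnfsf13os they ranged from -0.18 to 0.26, with -0.08 without shControl 2. With library weights they were 0.02 for Tnfrsf12a, 0.06 for Tnfrsf26, 0.07 for Tnfsf18 and -0.25 for Tnfsf13os, and with quantile normalization -0.03 for Tnfsf13os. Motif counts depended on spelling. The looser NF-kB consensus was in 26 member windows and a stricter spelling in 4, the interferon response core in 4 and its longer form, with another repeat, in 0, and TTCNNNGAA in 9 and the same with a longer spacer in 4. The cause of these changes was not tested.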
